A study of Mus musculus with 12 samples.

Results

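The 36 genes described here code for the glucose and lactate transporters and enzymes of glycolysis, for the oxygen-sensitive transcription factors and their sensors, and for common targets of those factors. They were taken by gene symbol from the 24360 genes that could be compared in 12 libraries of endothelial cells, sorted by flow cytometry from lungs of the mouse strain C57BL/6J at P5, postnatal day 5. All 36 were found, and 32 passed the filter on low values and were tested. The 4 others, Slc16a1, Hk2, Eno2 and Ldhb, were listed at 0 in 4 to 7 of the 12 libraries. The WT group was labelled wild type, and the labels do not say whether these mice carried Cre. The L12-ECKO mice carried VE-cadherin-CreERT2, an inducible Cre driven by an endothelial promoter, with Lats1 f/f and Lats2 f/f, floxed alleles of the Hippo pathway kinase genes. The L12YT-ECKO mice carried all of these and also Yap f/f and TAZ f/f, floxed alleles of the transcriptional co-activators that the kinases restrain. The sources used here give neither the inducer and its timing nor the sorting gate. Each genotype had 4 libraries, and nothing in the labels ties a library to a separate animal, so that the p-values measure the spread between libraries, which may be technical.

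Glycolysis splits glucose into pyruvate and yields ATP without oxygen; lactate dehydrogenase then turns pyruvate into lactate, which leaves the cell with protons through monocarboxylate transporters. Endothelial cells draw most of their ATP from this pathway, and sprouting vessels depend on PFKFB3, which makes the allosteric activator of phosphofructokinase. When oxygen is scarce, the prolyl hydroxylases encoded by Egln1 and Egln3 stop marking the HIF alpha subunits (Hif1a and Epas1) for degradation, and stabilized HIF binds a short element, ACGTG, near many glycolytic genes and other targets. This control acts largely on HIF protein, which was not measured.

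The HIF core element could be located in the promoters of these genes. RefSeq promoter windows of GRCm38.p6, from 250 bases before to 50 bases after an annotated start, were searched for ACGTG on both strands (CACGT on the printed strand is the same element on the other). A gene with more than 1 window was counted if any of them held the element, and the number of windows per gene was not compared between sets. Of 33 members with a window, 24 held it (72.7%). The share was 21.8% of all 27025 genes in the table and 29.6% of the 8781 tested genes in it. The members were chosen as glycolytic genes and HIF targets, so a high share follows in part from that choice. The members' windows had a median of 25 CG pairs, as against 22 over the tested genes and 8 over all genes. Among the 5465 genes with at least as many as the members' median, 33.4% held the element. By role it was present in 3 of 3 transporter genes, 6 of 9 in upper glycolysis, 4 of 7 in lower glycolysis, 1 of 3 in pyruvate fate, 3 of 3 in HIF subunits and sensors and 7 of 8 in HIF targets. A second HIF-type core, GCGTG, stood in 22 of 33 members (66.7%), in 35.2% of all genes and in 56.6% of the tested genes. The TEAD core GGAATG, which the partners of YAP and TAZ recognise, stood in 4 of 33 (12.1%). Its shares were 16.6% of all genes and 14.6% of the tested genes. Such matches describe letters in these windows; binding was not measured.

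The stretches below, chosen after their genes' values were seen, show the element in 7 members with different behaviour in these libraries. Ddit4 differed between groups, and Pgk1 and Ldha were level. Pfkfb3, Slc2a1 and Bnip3 were higher on average in L12-ECKO than in WT but scattered, with some libraries at 0. P4ha1 was higher on average in L12-ECKO (6.653 to 8.415) than in WT (4.981 to 6.887), was at 0 in no library and was not called. ACGTG and CACGT are in capitals, and each sequence runs 5′ to 3′ on the strand of its gene.
Slc2a1, chr4:119108669-119108744, plus strand: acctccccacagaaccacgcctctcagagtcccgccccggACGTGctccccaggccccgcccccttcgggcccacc
Pfkfb3, chr2:11553945-11554029, minus strand: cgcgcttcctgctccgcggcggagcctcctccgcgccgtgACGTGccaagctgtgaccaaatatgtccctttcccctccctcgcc
Pgk1, chrX:106186910-106187013, plus strand: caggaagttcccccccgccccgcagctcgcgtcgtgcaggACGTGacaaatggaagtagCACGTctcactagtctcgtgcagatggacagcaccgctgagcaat
Ldha, chr7:46845619-46845803, plus strand: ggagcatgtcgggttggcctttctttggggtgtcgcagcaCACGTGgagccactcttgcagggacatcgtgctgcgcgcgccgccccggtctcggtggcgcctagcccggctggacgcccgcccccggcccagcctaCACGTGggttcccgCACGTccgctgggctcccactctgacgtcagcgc
Bnip3, chr7:138909569-138909654, minus strand: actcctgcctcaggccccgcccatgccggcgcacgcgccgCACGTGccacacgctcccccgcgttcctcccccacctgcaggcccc
Ddit4, chr10:59951913-59951997, minus strand: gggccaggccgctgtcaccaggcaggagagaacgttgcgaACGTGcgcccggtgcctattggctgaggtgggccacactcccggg
P4ha1, chr10:59323240-59323295, plus strand: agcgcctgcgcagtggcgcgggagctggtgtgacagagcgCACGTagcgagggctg
Ldha held 5 matches, 145 to 34 bases before its start, among them 2 palindromes CACGTG in which both strands read the element. Pgk1 held 2, Bnip3 held 2 that overlap in 1 palindrome, and the other 4 stretches held 1 each. In Ddit4 the match lay 187 bases before the start, in Pfkfb3 60 and in P4ha1 16.

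The values are the authors' normalized log2 expression from 3′-tag sequencing, so that a difference of 1 is a factor of 2, and the depth behind them is unknown. All 12 endothelial markers listed were above 0 in every library. Their summed level (18.24 to 18.47, log2) says little of their variation, since Egfl7 alone was at 17.718 in each library. In L12-ECKO 9 of the 12 lay below WT, and limma called 0. At an unadjusted p under 0.05, 3 were lower (5.91% of all genes): the receptor gene Tek differed by -1.11 (limma adjusted p = 0.078), Ramp2 by -0.80 (0.128) and the tight junction gene Cldn5 by -0.67 (0.186). In L12YT-ECKO against L12-ECKO limma called 1 of the 12, Cldn5, as higher (difference 1.14, limma adjusted p = 0.0401, 0.0688% of all genes called). The part of these markers in the results on the 36 genes was not tested. Wwtr1, which encodes TAZ, lay at 8.156 to 9.371 in L12YT-ECKO and at 10.112 to 12.007 elsewhere, and Yap1 at 6.694 to 8.204 as against 9.353 to 10.449. Lats2 was not lower in the knockouts: the L12-ECKO libraries (9.711 to 10.329) all lay above those of WT (8.419 to 9.336; limma adjusted p = 0.260, unadjusted p = 0.0126). Lats1 was scattered, from 0 to 7.896. Where the 3′ tags of these 2 genes lie relative to the deleted parts, which are not given, is unknown, so that their values cannot check the labels. Displaced rows in the deposited tables of 5 libraries (all of L12-ECKO but replicate 1, and L12YT-ECKO replicates 3 and 4) separate them from the other 7, and no WT library is among them. Whether this marks a difference in processing or a fault of the tables is not known; no member lies in those rows. L12-ECKO replicate 1 stood apart by its immune transcripts, as given at the end. Fewer cells of a type and less RNA per cell cannot be told apart in such bulk samples.

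Of the 32 tested members, 1 was called in the comparison of L12-ECKO with WT, which asks what loss of both kinases does. That member was Ddit4, which was higher in L12-ECKO (limma, adjusted p under 0.05 over 11634 genes; 0.481% of all genes tested were called, 0.292% as higher). At an unadjusted p under 0.05, 3 members were higher and 1 lower (6.31% and 5.91% of all genes). The difference lay above 0 in 22 of 32 members (49.0% of all genes), with a median of 0.20 beside -0.02 over all genes. In L12YT-ECKO against WT limma called 0 members (0.0086% of all genes), and at an unadjusted p under 0.05 3 were higher and 0 lower (4.13% and 2.11%). The median was -0.0082 beside 0.08, with 16 of 32 above 0 (54.3% of all genes). In L12YT-ECKO against L12-ECKO, which asks what the further loss of Yap and TAZ does, limma also called 0 members (0.0688% of all genes), and an unadjusted p under 0.05 was found for 1 higher and 0 lower members (3.98% and 2.1%). There 9 of 32 members lay above 0 (55.0% of all genes), with a median of -0.23 beside 0.09. The 3 comparisons share their groups and are not independent of each other.

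**Figure D1:**
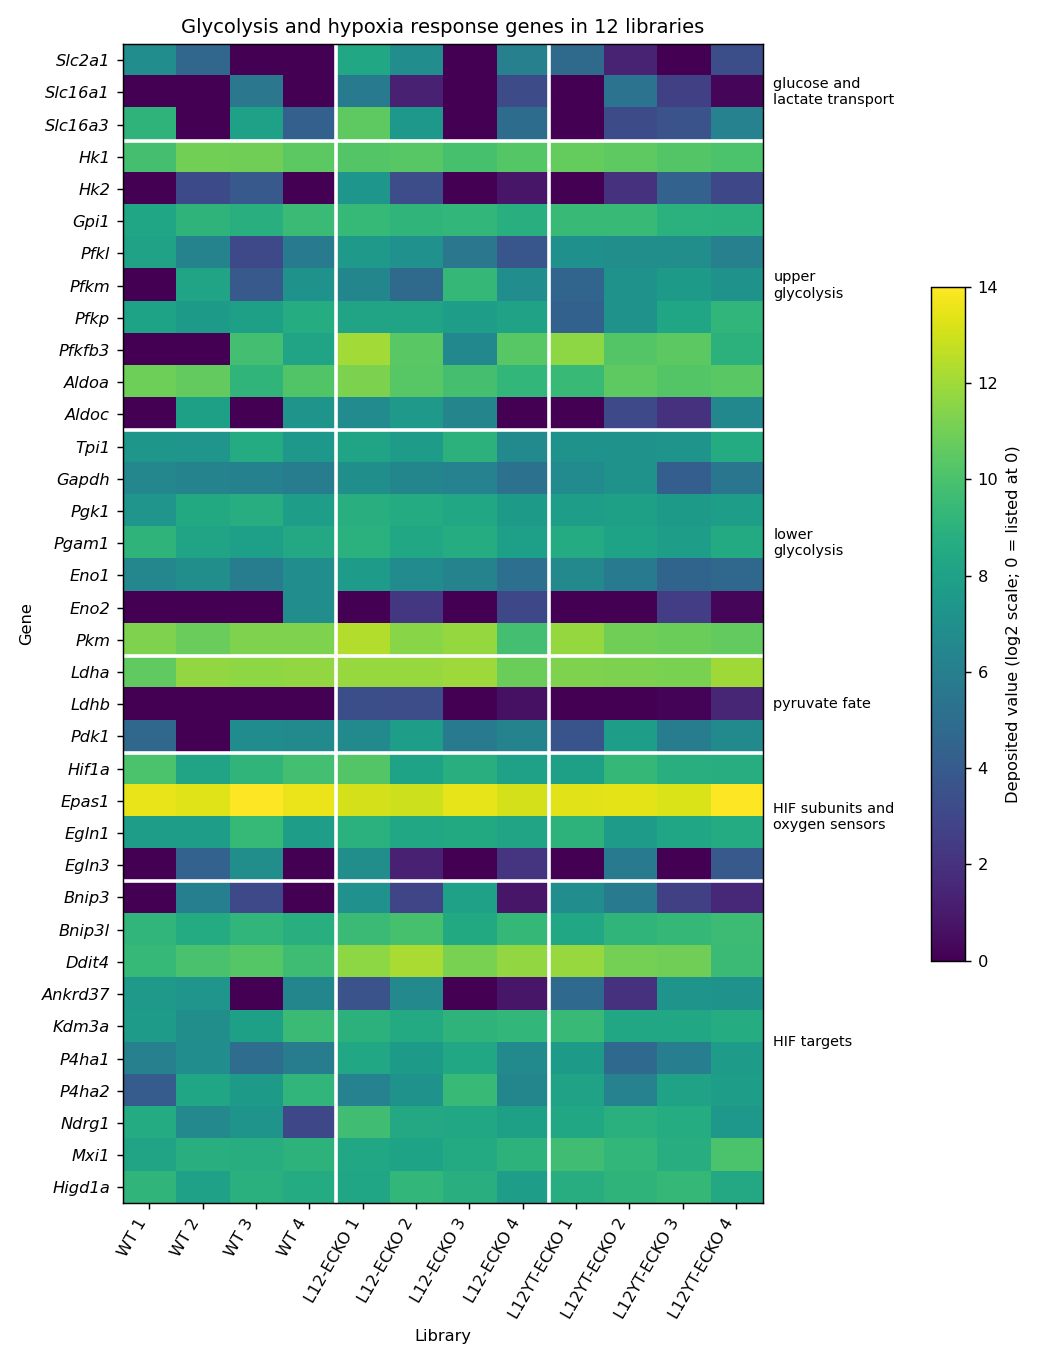
Deposited log2 value (colour) of the 36 members (rows, by role) in the 12 libraries (columns, by genotype; white lines separate groups). Epas1 stayed between 12.944 and 13.980 in all libraries, Ddit4 was brighter in L12-ECKO than in WT, and Slc2a1, Slc16a3, Pfkfb3 and Bnip3 were at 0 in some libraries and well above it in others.

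The transporters scattered more within groups than between them. Slc16a3 (chr11:120948480-120960868, GRCm38, plus strand), which encodes the lactate exporter MCT4, was listed in the WT libraries at 9.082, 0, 8.013 and 4.318, in those of L12-ECKO at 10.533, 7.489, 0 and 4.941, and in those of L12YT-ECKO at 0, 3.222, 3.556 and 6.211. A library at 0 occurred in every group, and the groups overlapped. L12-ECKO differed from WT by 0.39 (SE 2.25, adjusted p = 0.960), L12YT-ECKO from WT by -2.11 (adjusted p = 0.901) and from L12-ECKO by -2.49 (adjusted p = 0.956, limma in each case). Slc2a1, the gene of the glucose transporter GLUT1, had WT values of 6.884, 4.638, 0 and 0, L12-ECKO values of 8.327, 6.873, 0 and 6.098, and L12YT-ECKO values of 4.824, 1.389, 0 and 3.376. It too was at 0 in a library of each group, and its differences from WT were 2.44 in L12-ECKO and -0.48 in L12YT-ECKO (SE 2.05 for both), neither called. Slc16a1, the gene of the transporter MCT1, was at 0 in 5 libraries and was not tested.

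In upper glycolysis, which traps and splits the sugar, 0 of 8 tested genes were called by limma in any comparison, and at an unadjusted p under 0.05 Pfkfb3 was higher in each knockout than in WT. Pfkfb3 (chr2:11471433-11554077, minus strand) was listed in the WT libraries at 0, 0, 9.839 and 8.167, in those of L12-ECKO at 12.048, 10.421, 6.510 and 10.365, and in those of L12YT-ECKO at 11.610, 10.277, 10.480 and 8.971. The low WT mean came from the 2 libraries at 0; the other WT libraries lay within the range of L12-ECKO. The difference from WT was 5.33 in L12-ECKO (SE 2.32, limma adjusted p = 0.399, unadjusted p = 0.045) and 5.83 in L12YT-ECKO (SE 2.32, limma adjusted p = 0.758). Raising all values under 5 to 5 reduced these to 2.83 and 3.33. Of the tested genes that reached 9 or more in some library, 8.87% were at 0 in another (518 of 5841), and among members it was 3 of 20. Values of 0 were uneven between the groups: each WT library had 10.74% to 11.96% of all tested genes at 0, the L12-ECKO libraries 5.71%, 6.03%, 19.65% and 4.21%, and the L12YT-ECKO libraries 10.88%, 5.83%, 3.71% and 3.07%. Their part in the difference of Pfkfb3 was not tested.

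Hk1 (chr10:62268855-62379908, minus strand), the gene of a hexokinase that commits glucose to the cell, was steady by comparison. The WT libraries had 9.896, 11.020, 10.971 and 10.475, the L12-ECKO libraries 10.230, 10.346, 9.949 and 10.287, and the L12YT-ECKO libraries 10.701, 10.533, 10.267 and 10.049. All L12-ECKO and L12YT-ECKO libraries lay within the WT range. The interval of the difference from WT ran from -1.03 to 0.25 in L12-ECKO and from -0.85 to 0.44 in L12YT-ECKO (95%). Gpi1 (glucose-6-phosphate isomerase) and Aldoa (aldolase A) differed by 0.20 and -0.05 in L12-ECKO, with group SDs of 0.26 to 0.84. The phosphofructokinase subunit genes Pfkl, Pfkm and Pfkp differed by 0.21, 2.06 and -0.03, and the aldolase gene Aldoc by 1.36 (SE 1.16, 1.52, 0.75 and 2.20). The 3′ end of Aldoa shares a 50-base stretch with 1 pseudogene, so that its counts may be split.

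Of the 6 tested genes of lower glycolysis, which yields ATP and pyruvate, limma called 0 in each comparison, and 0 had an unadjusted p under 0.05. In L12-ECKO against WT their differences ran from -0.08 to 0.25, with 5 above 0 (median 0.13). In L12YT-ECKO all 6 lay below WT and below L12-ECKO on average (medians -0.20 and -0.33), by at most 1.16 and 1.08, both in Eno1, an enolase gene (SE 0.99). Pkm (chr9:59656368-59679375, plus strand), which encodes pyruvate kinase, had WT values of 11.306, 10.782, 11.311 and 11.305, L12-ECKO values of 12.388, 11.539, 11.758 and 9.822, and L12YT-ECKO values of 11.797, 10.939, 10.860 and 10.610. L12-ECKO held both the highest and the lowest library, and its SD of 1.10 (n = 4) was larger than the 0.20 by which it differed from WT (95% interval -0.69 to 1.09). Gapdh, the gene of the dehydrogenase often used as a reference, ranged from 4.181 to 7.211, both in L12YT-ECKO, and differed from WT by 0.01 in L12-ECKO and -0.28 in L12YT-ECKO, with group SDs of 0.25, 0.75 and 1.36 (n = 4). Its 3′ end shares a 50-base stretch with 98 other genes, 93 of them pseudogenes, so its values are uncertain; Eno1 shares one with 1 other gene. The remaining genes, Tpi1 (triosephosphate isomerase), Pgk1 (phosphoglycerate kinase) and Pgam1 (phosphoglycerate mutase), differed by 0.20, 0.25 and 0.07 in L12-ECKO.

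Among the genes that set the fate of pyruvate, Ldha (chr7:46841475-46855627, plus strand), the lactate dehydrogenase A gene, read 10.579, 11.721, 11.641 and 11.748 in the WT libraries, 11.856, 11.823, 11.942 and 10.873 in those of L12-ECKO, and 11.303, 11.242, 11.171 and 11.984 in those of L12YT-ECKO. In each group 3 libraries lay close together and 1 apart, and the groups overlapped throughout. The difference from WT was 0.20 in L12-ECKO (95% interval -0.47 to 0.87) and 0.0028 in L12YT-ECKO (-0.66 to 0.67). Pdk1, whose kinase keeps pyruvate out of the mitochondrial acetyl-CoA step, ranged from 0 to 6.808 in WT and from 5.764 to 7.776 in L12-ECKO, a difference of 2.07 (SE 1.46) that was not called. Without WT replicate 2, which was at 0, WT began at 4.663.

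**Figure D2:**
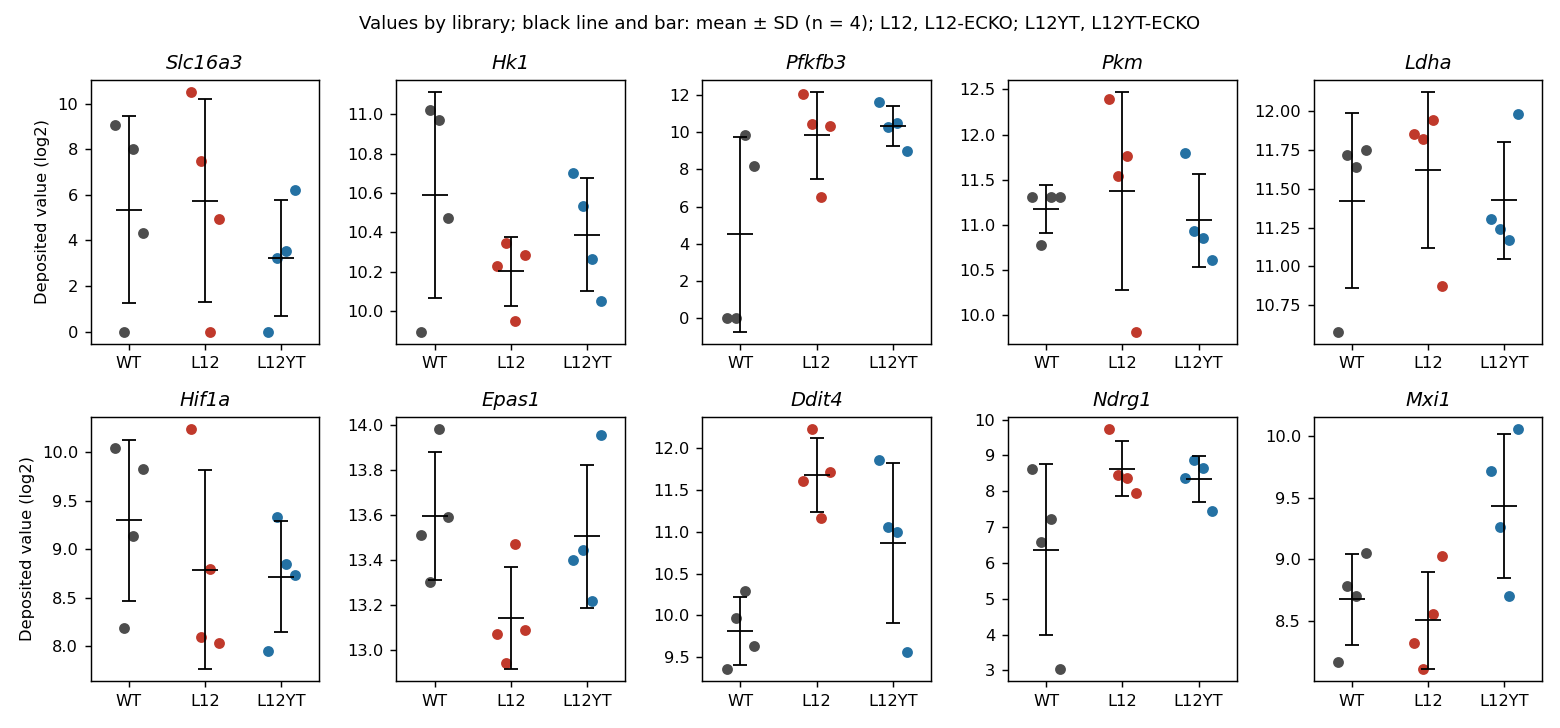
Deposited log2 value of each library (points) for 10 members in WT, L12-ECKO (L12) and L12YT-ECKO (L12YT), with the mean ± SD of 4 libraries (lines and bars); each panel has its own scale. For Ddit4 the L12-ECKO points (11.160 to 12.232) lie above all WT points (9.356 to 10.291), while in the other panels L12-ECKO and WT overlap.

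No HIF subunit or sensor gene was called, and 3 of the 4 lay below WT in each knockout on average (medians -0.35 and -0.26). Epas1 (chr17:86753700-86833410, plus strand), which encodes the HIF alpha subunit prominent in endothelium, stood at 13.512, 13.304, 13.980 and 13.590 in the WT libraries, at 13.074, 12.944, 13.469 and 13.089 in those of L12-ECKO, and at 13.398, 13.446, 13.219 and 13.954 in those of L12YT-ECKO. Only L12-ECKO replicate 3 of its group reached into the WT range. L12-ECKO differed by -0.45 (SE 0.21, limma adjusted p = 0.406, unadjusted p = 0.048), and L12YT-ECKO by -0.09 (limma adjusted p = 0.959). Hif1a (chr12:73901375-73947530, plus strand), the gene of the broadly expressed alpha subunit, had WT values of 10.037, 8.189, 9.134 and 9.819, L12-ECKO values of 10.234, 8.097, 8.793 and 8.039, and L12YT-ECKO values of 7.950, 9.332, 8.848 and 8.739. Its highest library was L12-ECKO replicate 1, the others of that group lying below the WT mean, and no difference was called (-0.50 and -0.58 from WT, SE 0.52). The prolyl hydroxylase genes Egln1 and Egln3 differed by 0.27 and -0.25 in L12-ECKO (SE 0.48 and 2.07), and Egln3 was at 0 in 5 of 12 libraries.

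The HIF targets held the 1 call. Ddit4 (chr10:59949669-59951834, minus strand) encodes REDD1, a stress-induced inhibitor of the growth kinase mTORC1 that is also induced by other stresses than hypoxia. The WT libraries had 9.356, 9.971, 10.291 and 9.628, the L12-ECKO libraries 11.610, 12.232, 11.160 and 11.723, and the L12YT-ECKO libraries 11.861, 11.053, 10.992 and 9.557. Every L12-ECKO library lay above every WT library, which was so for 2.97% of all genes tested in this direction, and Ddit4 was the only one of the 32 members whose groups did not overlap in any comparison (6.33%, 4.7% and 4.38% of all genes in the 3 comparisons). In L12YT-ECKO, replicate 1 lay in the L12-ECKO range, replicates 2 and 3 between the ranges of the other groups and replicate 4 in that of WT.

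The mean of Ddit4 was 9.81 ± 0.41 for WT, 11.68 ± 0.44 for L12-ECKO and 10.87 ± 0.96 for L12YT-ECKO (SD, n = 4). L12-ECKO exceeded WT by 1.87 (SE 0.395, 95% interval 1.04 to 2.70, limma adjusted p = 0.047). L12YT-ECKO exceeded WT by 1.05 (SE 0.395, limma adjusted p = 0.748, unadjusted p = 0.0152) and lay below L12-ECKO by 0.82 on average (difference -0.82, SE 0.395, limma adjusted p = 0.811, unadjusted p = 0.053). The call against WT stood close to its threshold. It was lost with the displacement of rows as a covariate (difference 2.35, limma adjusted p = 0.0701), with no filter (limma adjusted p = 0.0853) and with a plain prior (limma adjusted p = 0.219). In the 7 libraries without displaced rows, where replicate 1 was the only L12-ECKO library, the difference was 1.80. Across all settings the difference stayed between 1.69 and 2.35. The filter, the prior, the replicate block and leaving out an L12YT-ECKO library cannot change it, and it was 1.87 there. The call was also lost without WT replicate 1, 2 or 4 (limma adjusted p = 0.127, 0.0947 and 0.0958), without L12-ECKO replicate 1, 2 or 4 (0.0849, 0.119 and 0.0888) and without L12YT-ECKO replicate 2 or 3 (0.0675 and 0.0603). L12-ECKO replicate 1, which has no displaced rows, read 11.610, above all WT libraries, and the other 3 L12-ECKO libraries averaged 1.89 above WT. Those 3 all have displaced rows, and replicate 1 held the most immune transcripts. Genotype cannot be told apart from these features in the L12-ECKO libraries.

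Ndrg1 (chr15:66929318-66969640, minus strand), a stress- and hypoxia-inducible gene, read 8.630, 6.585, 7.224 and 3.042 in the WT libraries, 9.733, 8.459, 8.374 and 7.953 in those of L12-ECKO, and 8.376, 8.881, 8.656 and 7.445 in those of L12YT-ECKO. The knockout libraries were close together, and WT replicate 1 lay among them while WT replicate 4 lay far below. The difference from WT was 2.26 in L12-ECKO (SE 0.877, limma adjusted p = 0.297, unadjusted p = 0.0194) and 1.97 in L12YT-ECKO (limma adjusted p = 0.767). Mxi1 (chr19:53310518-53375810, plus strand), the gene of an antagonist of MYC, had WT values of 8.172, 8.784, 8.703 and 9.051, L12-ECKO values of 8.327, 8.114, 8.562 and 9.027, and L12YT-ECKO values of 9.712, 9.261, 8.701 and 10.054. Of the L12YT-ECKO libraries, 3 lay above all others and replicate 3 among them, and the difference from L12-ECKO was 0.92 (SE 0.405, limma adjusted p = 0.787, unadjusted p = 0.034).

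The other HIF targets were not called either. P4ha1, whose product hydroxylates prolines of collagen, ranged from 4.981 to 6.887 in WT, from 6.653 to 8.415 in L12-ECKO and from 4.765 to 7.661 in L12YT-ECKO, with a difference of 1.81 between the first 2 groups (SE 0.87). Kdm3a, a histone demethylase gene, ranged from 6.942 to 9.555 in WT and from 8.584 to 9.266 in L12-ECKO (difference 0.95, SE 0.50). The mitophagy receptor genes Bnip3 and Bnip3l differed by 2.44 and 0.35 (SE 1.96 and 0.40), Bnip3 being at 0 in 2 WT libraries. Ankrd37 differed by -2.56 (SE 1.96), with WT libraries from 0 to 7.590, and P4ha2, a relative of P4ha1, and Higd1a, a mitochondrial protein gene, differed by 0.02 and -0.14. In all, 7 of the 10 targets lay above WT in L12-ECKO (median 0.65) and 9 of 10 in L12YT-ECKO (median 0.61); both counts use the same WT libraries.

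**Figure D3:**
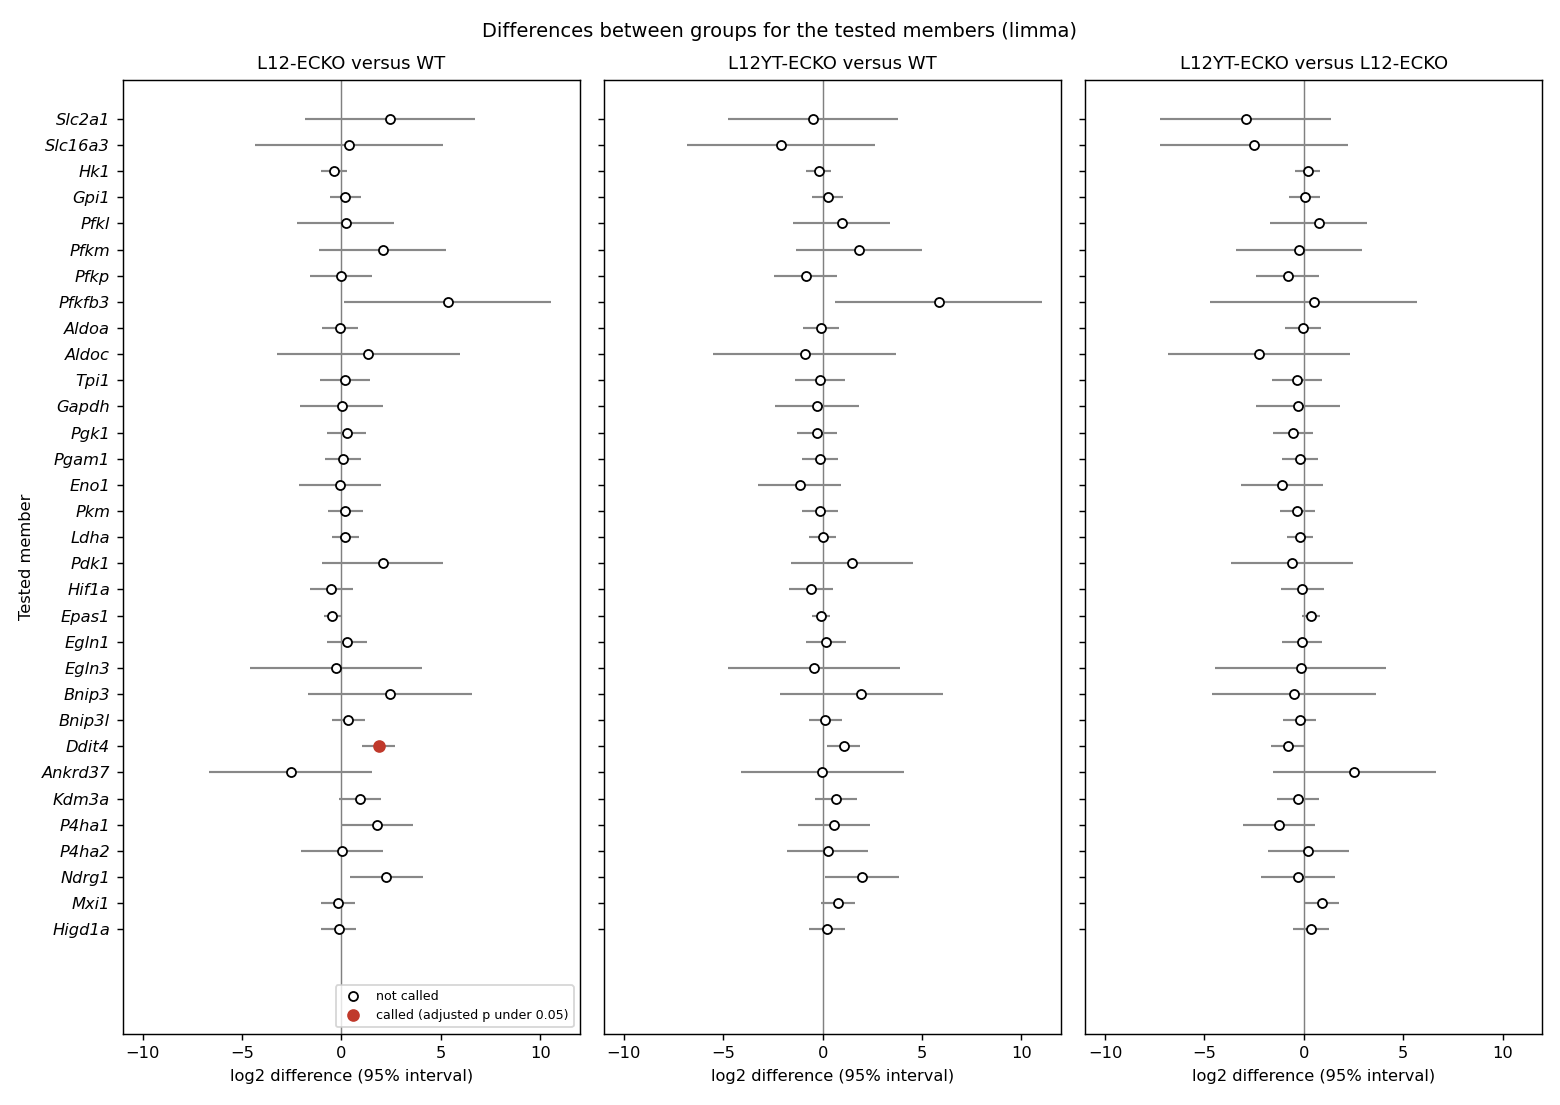
Difference between group means (x axis, log2) with its 95% interval for the 32 tested members in the 3 comparisons; a filled red point marks a call at an adjusted p under 0.05. Ddit4 in L12-ECKO against WT, at 1.87, is the only filled point, and the intervals of Pfkfb3, Slc2a1, Slc16a3, Aldoc, Egln3, Bnip3 and Ankrd37 are the widest.

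The precision differed widely between members. For the 16 with a mean of at least 8, the SD between libraries of a group had a median of 0.50, and for the 16 below it one of 1.91. A difference of 1 was thus smaller than the usual spread between libraries in the second set, which holds both tested transporters.

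Genes of the same pathways outside the 36 were examined from a list of 42 further genes of glucose metabolism, of which 27 were tested. limma called 0 of 27 in each comparison (0.481%, 0.0086% and 0.0688% of all genes). At an unadjusted p under 0.05 there were 1 higher and 1 lower in L12-ECKO against WT (6.31% and 5.91% of all genes). There were 0 in L12YT-ECKO against WT (4.13% and 2.11%), and 1 higher and 0 lower in L12YT-ECKO against L12-ECKO (3.98% and 2.1%). The medians were 0.18, 0.19 and -0.02. Pdk2, another pyruvate dehydrogenase kinase gene, had WT values of 7.561, 0, 6.320 and 6.942, L12-ECKO values of 0, 1.280, 0 and 2.695, and L12YT-ECKO values of 5.215, 5.351, 4.714 and 6.670. All L12YT-ECKO libraries lay above all L12-ECKO libraries, and 1 WT library lay among the latter. Groups did not overlap for 4.38% of all genes in this comparison. The lowest value above 0 of any gene was 1.280 in L12-ECKO replicate 2 and 4.981 in replicate 3, so Pdk2 was at the floor there. The difference was 4.49 between the knockouts (SE 1.71, limma adjusted p = 0.691) and -4.21 between L12-ECKO and WT (limma adjusted p = 0.330). Eno3, the muscle enolase gene, was listed at 0 in all WT libraries and above 5 in 3 of 4 L12-ECKO libraries (limma adjusted p = 0.359). In L12YT-ECKO against WT the smallest p after that of Eno3 (limma adjusted p = 0.883) belonged to Pdp1, a pyruvate dehydrogenase phosphatase gene (difference 0.86, limma adjusted p = 0.903), and in L12YT-ECKO against L12-ECKO after that of Pdk2 to Pgm1, a phosphoglucomutase gene (0.75, limma adjusted p = 0.902).

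Of 39 further symbols listed as hypoxia response genes, 38 were found and 35 were tested, and called genes in L12-ECKO against WT went both ways. Apln, an angiogenic peptide gene, was higher by 2.61 in L12-ECKO (SE 0.297, limma adjusted p = 0.000378). Vegfa, the archetypal HIF target among endothelial growth factors, was lower by 1.25 on average (difference -1.25, SE 0.277, limma adjusted p = 0.0481), with L12-ECKO libraries from 11.111 to 12.062 all below WT at 12.607 to 13.621; with a library left out the call was kept in 1 of 12 fits, that without WT replicate 3, and the limma adjusted p reached 0.184. It was also lost with the displacement as a covariate (limma adjusted p = 0.137). In L12YT-ECKO against L12-ECKO only Apln was called (difference -2.01, limma adjusted p = 0.00522; 0.20 with a plain prior and 0.11 in the libraries without displaced rows). In L12YT-ECKO against WT limma called 0 of 35. At an unadjusted p under 0.05, 7 of the 35 were higher and 2 lower in L12-ECKO against WT (6.31% and 5.91% of all genes), 3 and 0 in L12YT-ECKO against WT (4.13% and 2.11%), and 3 and 3 in L12YT-ECKO against L12-ECKO (3.98% and 2.1%). The medians of the 35 were 0.21, 0.51 and 0.27.

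Among the L12-ECKO libraries, replicate 1 stood highest in these genes. It held the highest of the 12 values for 10 of the 32 tested members (31.25%), as against 7.25% of all genes tested. These were Slc2a1, Slc16a3, Pfkfb3, Aldoa, Pgk1, Eno1, Pkm, Hif1a, P4ha1 and Ndrg1. Its members had a median of 0.96 above the WT mean, whereas the other 3 libraries of the group had 0.38, 0.26 and -0.50 and those of L12YT-ECKO 0.09, -0.01, 0.03 and 0.53. Without replicate 1, the median difference of L12-ECKO from WT was 0.10 in place of 0.20 and that of L12YT-ECKO from L12-ECKO was -0.04 in place of -0.23. WT replicate 1 held the lowest value for 7 members (21.88%, as against 8.78% of all genes).

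The same library held the most immune transcripts. The summed level of 13 immune markers was 16.46 (log2) in L12-ECKO replicate 1, with S100a8 at 15.198 and S100a9 at 15.563, both abundant in neutrophils, and 6.85 to 11.74 in the other 11 libraries. By group it ranged from 6.85 to 11.74 in WT (4 of 13 markers at 0 in all 4 libraries), from 7.40 to 16.46 in L12-ECKO (3 of 13) and from 6.90 to 10.08 in L12YT-ECKO (3 of 13). Ddit4 was not among the members highest in L12-ECKO replicate 1. Its highest library was L12-ECKO replicate 2, with an immune sum of 8.65 and a sum of 11.56 for the liver markers given next. The sum of the 13 liver markers was 9.08 to 11.81 in the 5 libraries with displaced rows and 3.5 to 9.14 in the other 7, and by group 5.05 to 9.14 in WT (6 of 13 markers at 0 in all 4), 3.70 to 11.81 in L12-ECKO (1 of 13) and 3.5 to 10.71 in L12YT-ECKO (1 of 13). In L12-ECKO replicate 1, the library with the immune sum of 16.46, the liver sum was 3.70, below every WT library, with Ddit4 at 11.610. In WT, L12-ECKO and L12YT-ECKO, red cell and platelet markers summed to 15.18 to 17.77, 14.77 to 16.89 and 15.38 to 17.30. Hba-a1 and Hba-a2 had the same value in each library, as did Hbb-b1 and Hbb-bs, and Hbb-b2 and Hbb-bt, so these sums count them more than once. Epithelial markers summed to 11.03 to 13.34 (median 12.955), 10.79 to 12.62 (11.75) and 11.42 to 13.38 (12.375). Mesenchymal markers summed to 13.78 to 14.57, 14.28 to 15.10 and 14.05 to 15.03. In these lists 0 markers were at 0 throughout a group. In L12-ECKO 5 of 8 tested epithelial markers lay below WT and 3 above, and limma called 0. The part of these other transcripts in the members' averages and in the values of Ddit4 and Vegfa was not tested.

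**Figure D4:**
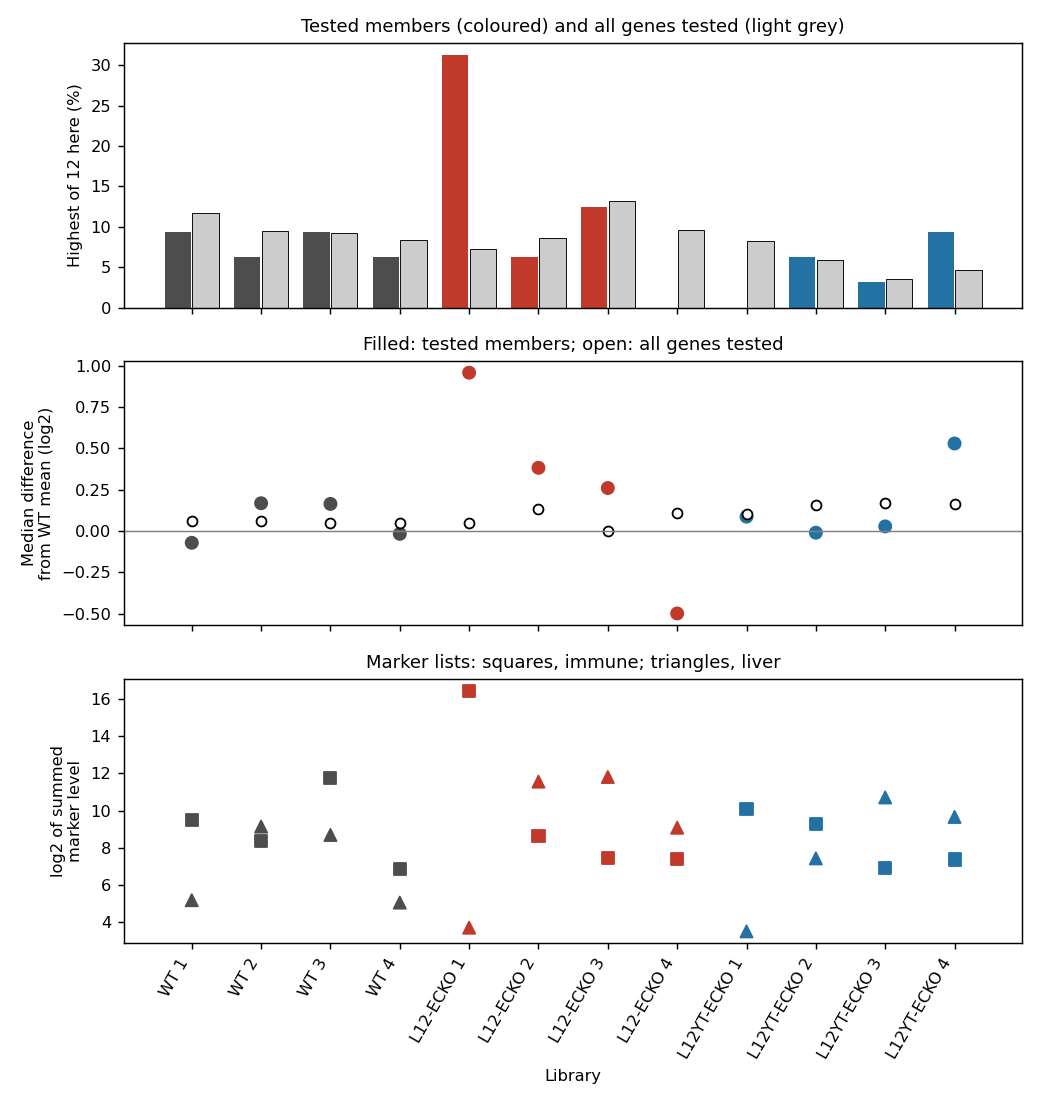
For each library (x axis): the share of tested members (coloured bars) and of all tested genes (light grey bars) that have their highest value there; the median difference from the WT mean over members (filled) and over all genes (open); and the log2 summed level of the immune (squares) and liver (triangles) markers. L12-ECKO replicate 1 has the tallest coloured bar (31.25%), the highest member median (0.96) and the highest immune sum (16.46).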

How the data were processed

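RNA of sorted lung endothelial cells was extracted with Trizol and made into 3′-tag libraries from 500 ng of total RNA with a Lexogen QuantSeq kit, per the labels' protocols. Bowtie2, edgeR and mm10 are listed in the submitters' processing notes; the sources used here do not give their roles or versions. The deposited values are log2 expression that the authors had already normalized: they run from 0 to 20.665, the same maximum in all 12 libraries. The log2 scale and quantile normalization were inferred from the values, and the depth and counting error are unknown. Each table lists 24421 genes, and 24394 are in all 12, since 27 stand under names turned into dates in 2 libraries. In 5 libraries 32 rows are displaced by 1 row and 2 rows are exchanged; these 34 rows were left out, and the displacement, whose origin is not known, was used to divide the libraries; it takes in 3 libraries of L12-ECKO, 2 of L12YT-ECKO and 0 of WT. Genes with a CPM of at least 1 (from the values raised from the log2 scale, per library total) in at least 4 libraries were tested, 11634 in all. Group means were fitted to the 12 libraries together in limma 3.58.1 (R 4.3.3) with a trended, robust prior (statmod 1.5.0; 9 residual degrees of freedom, prior median 10.1). The Benjamini-Hochberg adjustment covered every gene tested. The procedure was tested on simulated data. Gene coordinates are from GENCODE M21 (GRCm38) and promoters from RefSeq (GRCm38.p6).

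The members and the lists were chosen with earlier results of these data known. Values in every library are given for members called, the 3 with the smallest p in each comparison, the member with the highest mean in each role, and Hif1a and Epas1. Genes of the other pathway lists are named where called or, with no call, as the 2 with the smallest p. For 1 gene met by this rule no values are reported here. Arnt, Hif3a, Vhl, Hif1an and Egln2 were named in addition, beside the HIF subunit and sensor genes. Alternatives were other filters, a floor of 5 on the log2 values, libraries shifted to a common median, a plain prior, the replicate block, the displacement as a covariate, the libraries without displaced rows, and each library left out.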

Additional observations from a re-analysis of the deposited data

Results flagged for a closer look

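Within a group of 4, single libraries of Pkm and Ldha stood far from the other 3: the gap to the nearest exceeded Dixon's 95% critical share of the group's range. Pkm was lowest in WT replicate 2 at 10.782, the other WT libraries lying between 11.305 and 11.311. Ldha was lowest in WT replicate 1 at 10.579, lowest in L12-ECKO replicate 4 at 10.873 and highest in L12YT-ECKO replicate 4 at 11.984, so that each group of Ldha had 1 library apart. Of 30 groups examined, over the 10 members with values given in every library, 4 met this, and chance alone picks about 1 in 20.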

How the results depend on the processing

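Across the alternatives no called value changed sign. For L12-ECKO against WT, the 56 genes called became 21 with no filter, 87 with values raised to 5, 7 with a plain prior, 15 with the displacement covariate, and 15 to 80 when each library was left out. The 1 member called became 0 with no filter, a plain prior, the displacement covariate or only the libraries without displaced rows, and 0 to 1 with a library left out. The member median of 0.202 became 0.711 with the displacement covariate and 0.957 in the libraries without displaced rows, which include 1 L12-ECKO library, replicate 1; it was 0.1 to 0.413 with a library left out. For L12YT-ECKO against WT, 1 to 3 genes were called with a library left out, and the median lay between -0.059 and 0.134. For L12YT-ECKO against L12-ECKO, the 8 genes called became 3 with a plain prior, 14 in the libraries without displaced rows and 4 to 9 with a library left out, and the median of -0.232 became -0.784 in the libraries without displaced rows and lay between -0.36 and -0.038 with a library left out. The cause of these changes was not tested. The 56 calls divided into 34 higher and 22 lower (60.7% higher), and 33 and 11 (75.0%) with libraries shifted to a common median. The share of higher calls ran from 56.2% without L12-ECKO replicate 4 to 80.0% without WT replicate 2. In the libraries without displaced rows, where L12-ECKO had only replicate 1, the division reversed and most calls were lower.

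Same-numbered libraries did not deviate together: in 0 of 12 pairs did the correlation exceed 0.1 (-0.047 to 0.058), and 3 correlated best with their own number. With the replicate block, 43, 1 and 6 genes and 1, 0 and 0 members were called in the 3 comparisons (Ddit4, limma adjusted p = 0.0499), and Vegfa lost its call (limma adjusted p = 0.0633). Depth is unknown, so whether a gene listed at 0 was absent or not sampled cannot be told apart; this touches 9 of the 32 tested members.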
